A study of Homo sapiens with 3 samples.

Results

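Ultrashort introns of 70 to 95 nt were examined in the capture design used to find splicing branchpoints in K562, a human leukaemia cell line. The deposited design is a list of genomic intervals on hg19, and a candidate is an interval of 70 to 95 nt on chromosomes 1 to 22 whose gaps to the intervals before and after are both 30 to 400 nt, so that it can be a whole intron between 2 exons. The rule took 4777 candidates, which are 1.31% of the 363390 intervals on these chromosomes and 42.3% of the 11297 intervals of that width. The whole list, with X and Y, holds 377858 intervals. The 3 libraries of the study are biological replicates 1, 2 and 3 of 1 group of K562 cells, for which the labels give no treatment, and they share the list. It holds no value per library, so no depth, replicate error or comparison between groups stands behind the values below, and none of them was tested. Counts and shares are a census of the list, and each SD below is a spread over chromosomes.

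An intron is removed in 2 steps. Its 5′ end is first joined to a branchpoint, an adenosine near the 3′ end, and the looped intron is then released as the exons are joined. Each intron must therefore hold a 5′ splice site, a branchpoint, a pyrimidine-rich stretch and a 3′ splice site, and in the shortest human introns these lie close together. In genes of GC-rich regions many introns are short, and the spliceosome is thought to recognise such an intron as a unit rather than through its flanking exons. The design targeted 100 nt at each intron end, per the labels' protocols, so an intron shorter than that is covered from end to end by 1 interval.

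The sequences of some candidates show what such an intron holds. No genome of the hg19 build was used here. Sequence was read from GENCODE release 29 transcripts (GRCh38) that keep the intron inside an exon, for 179 of the candidates matched to an annotated intron as described further on. These are transcripts that were annotated as retaining the intron, and the 179 candidates had a median score of 21, and 111 of them lie on chromosome 19, which holds 687 of the 4777 candidates. With chromosomes 16, 17 and 18 they come to 165 of the 179, so they do not stand for all candidates. Of the 179, 176 (98.3%) began with GT and ended with AG, 2 began with GC and ended with AG, and 1 began with AT and ended with AG. Capitals mark the first and last 2 bases and, where found between 45 and 18 bases from the 3′ end, the letters CTNAC, which resemble the branchpoint consensus. The 4 highest-scoring candidates with a sequence lie in FARSA (a phenylalanyl-tRNA synthetase subunit), CSNK1G2 (a casein kinase), AP2A1 (a clathrin adaptor subunit) and CLASRP, and the next 2 that hold CTNAC in TNPO2 (a nuclear import receptor) and NAPA (a SNARE disassembly factor):
FARSA, GRCh38 chr19:12930528-12930611, minus strand: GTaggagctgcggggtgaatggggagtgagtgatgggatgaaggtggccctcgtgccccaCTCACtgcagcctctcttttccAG
CSNK1G2, GRCh38 chr19:1978512-1978601, plus strand: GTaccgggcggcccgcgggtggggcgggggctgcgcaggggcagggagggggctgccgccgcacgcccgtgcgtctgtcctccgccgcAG
AP2A1, GRCh38 chr19:49805577-49805660, plus strand: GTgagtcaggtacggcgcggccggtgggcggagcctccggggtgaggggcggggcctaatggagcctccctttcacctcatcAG
CLASRP, GRCh38 chr19:45069125-45069201, plus strand: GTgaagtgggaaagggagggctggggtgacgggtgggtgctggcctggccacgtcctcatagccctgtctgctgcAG
TNPO2, GRCh38 chr19:12701673-12701751, minus strand: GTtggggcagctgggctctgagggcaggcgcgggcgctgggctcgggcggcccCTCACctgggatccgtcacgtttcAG
NAPA, GRCh38 chr19:47493046-47493118, minus strand: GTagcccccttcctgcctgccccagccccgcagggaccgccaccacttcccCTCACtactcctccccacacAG

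These introns are rich in G and C and carry runs of G. The median GC content of the 179 was 65.9% (quartiles 58.9% and 70.8%), against 60% in the 30 exon bases on each side, and 127 of the 179 exceeded their own flanks. On chromosome 19 the median was 68.4% (111 introns, with 61.7% in their flanks), and on the other chromosomes it was 61.4% (68 introns, with 56.7%). Intervals that exceed full width by 2 to 100 nt and lie between gaps of the same range, here called longer intervals, can also be whole introns. The 175 of their introns with a sequence had a median of 60.9%, with 58.3% in their flanks, and by the same division 63.5% on chromosome 19 (86 introns) and 58.3% elsewhere (89 introns). At least 1 GGG stood in 153 of the 179 (85.5%), with a median of 4 occurrences per intron, against 158 of the 175 longer introns (90.3%), with a median of 6. These are counts per intron, not adjusted for length, so they do not compare how densely GGG stands in short and longer introns. The 3 candidates of lowest GC content show the other end of the range, and their sequences hold no GGG. They lie in APPBP2 (20.5% GC), DYNC2H1 (22.7%) and DYNC1H1 (24.4%), of which the dynein genes encode heavy chains of the minus-end-directed microtubule motors:
APPBP2, GRCh38 chr17:60461916-60461993, minus strand: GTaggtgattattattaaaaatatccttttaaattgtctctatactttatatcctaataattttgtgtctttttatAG
DYNC2H1, GRCh38 chr11:103154607-103154694, plus strand: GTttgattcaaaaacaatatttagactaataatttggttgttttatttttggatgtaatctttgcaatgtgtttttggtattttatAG
DYNC1H1, GRCh38 chr14:102004684-102004761, plus strand: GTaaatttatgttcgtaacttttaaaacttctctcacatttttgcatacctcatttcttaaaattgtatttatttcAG

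The motif CTNAC was found in the 28 nt window near the 3′ end in 56 of the 179 candidates (31.3%). In a window of the same length near the 5′ end, bases 7 to 34, it was found in 5.59% of the candidates, and on the other strand of the 3′ window in 4.47%. In the 175 longer introns it was found in 17.7% of the 3′ windows, in 7.43% of the 5′ windows and in 5.14% on the other strand. Where it was found, its A lay a median of 23 nt from the last intron base in the candidates (range 19 to 39 nt) and 25 nt in the longer introns. A match is only a description of letters, and branchpoint calls were not analysed here. The 2 candidates that begin with GC, a known minor class of 5′ splice site, both hold CTNAC and lie in ITGA2B, the platelet integrin alpha chain, and FBF1, which overlaps the gene AC087289.3:
ITGA2B, GRCh38 chr17:44385210-44385285, minus strand: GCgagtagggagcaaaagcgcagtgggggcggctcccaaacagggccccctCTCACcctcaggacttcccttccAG
FBF1, GRCh38 chr17:75913820-75913912, minus strand: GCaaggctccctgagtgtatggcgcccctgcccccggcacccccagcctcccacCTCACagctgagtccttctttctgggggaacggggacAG

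Most candidates had the lengths of an annotated intron and its 2 exons. The annotation is on another build, so coordinates were not compared. Each candidate was matched by chromosome, width and both gaps to the introns of GENCODE release 29. A match was found for 3548 of 4777 (74.3%). With every interval set 1 or 2 nt longer or shorter, 37 to 63 candidates matched (0.775% to 1.32%). The match was at 1 annotated intron, claimed by 1 candidate, for 3391, and only 2 of these stood out of order along their chromosome. The other 157 matched several introns or shared one, as happens in repeated genes. The remaining 3389 are called named candidates here. They lie in 2013 genes or overlapping gene groups, 3322 of them (98.0%) in protein-coding genes and 3105 (91.6%) between 2 coding exons. From the other side, 3610 (39.3%) of the 9176 introns of 70 to 95 nt in that annotation with flanking exons of 30 nt or more and below 400 nt were matched by a candidate.

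The label of short introns held less well on chromosomes 1 and 2. There 425 of 887 candidates (47.9%) matched an annotated intron, against 3123 of 3890 (80.3%) on chromosomes 3 to 22. Among candidates of exactly 95 nt the match was 18 of 126 (14.3%) on chromosomes 1 and 2, against 158 of 217 (72.8%) elsewhere. The 1229 unmatched candidates are kept in the counts below, with the values of the matched ones beside them where these differ.

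Candidate widths had a median of 86 nt with quartiles of 81 and 91 nt. Few lay at the short end: 304 (6.36%) were 70 to 74 nt wide, 651 were 75 to 79 nt, 1025 were 80 to 84 nt, 1242 were 85 to 89 nt and 1555 were 90 to 95 nt. The share matched to an intron was 59.5% in the narrowest of these classes, 81.3% at 85 to 89 nt and 68.7% in the widest. Below the limit, 142 intervals of 65 to 69 nt between the same gaps had a match in 25.4%, and 94 of 60 to 64 nt in 3.19%. Matched intervals were thus few from 60 to 69 nt. Annotated introns below 60 nt were not searched, so narrower intervals could not match. At the edges of the rule, 38 intervals of 69 nt stood just outside and 45 of 70 nt just inside, and 351 of 96 nt stood just outside against 343 of 95 nt inside. At the lower gap limit, 81 intervals with a gap of 29 nt stood outside and 10 with a gap of 30 nt inside. Of the 81, 58 lie on chromosome 2, and 96.3% have the lengths of introns in genes such as ANKRD36C, ANKRD36B and ANKRD36, a family of near-identical ankyrin repeat genes.

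**Figure D1:**
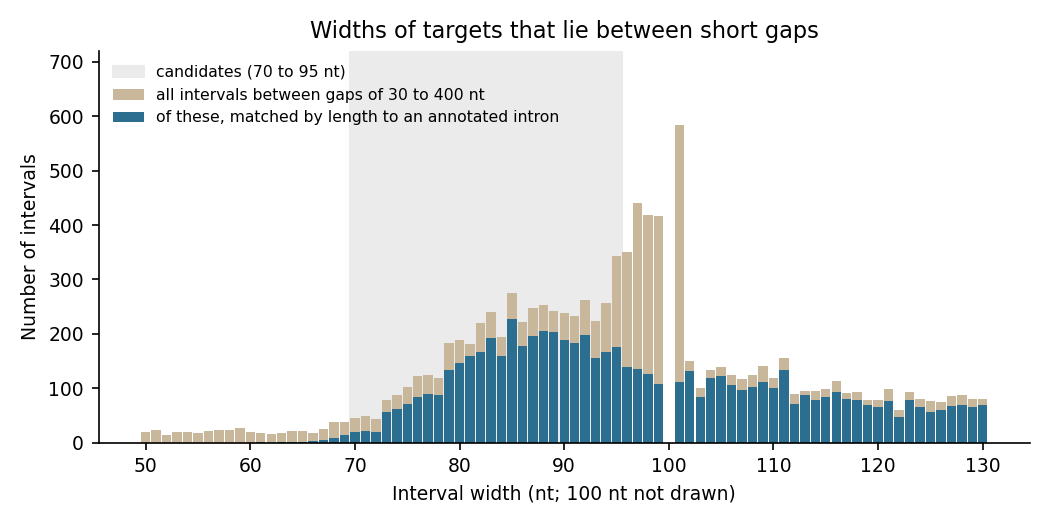
Number of intervals between gaps of 30 to 400 nt at each width in nt (tan), with those matched by length to an annotated intron in front (blue) and the 70 to 95 nt range shaded. Full-width intervals of 100 nt are not drawn. Matched intervals become few towards 70 nt, and unmatched ones pile up from 95 to 99 nt.

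The gaps beside the candidates had the lengths of internal exons. Over both sides the median gap was 123 nt (quartiles 89 and 168 nt), against 145 nt (94 and 232 nt) beside full-width intervals between gaps of the same range. The candidates' median was lower than that of full-width intervals on 22 of 22 chromosomes. Beside longer intervals the median was 121 nt (88 and 163 nt), near that of candidates. Matched candidates had a median of 118 nt (86 and 157 nt). Unmatched ones had 146 nt (97 and 224 nt), near that of full-width intervals. In named candidates the annotated exons had a median of 119 nt upstream and 118 nt downstream, in the direction of transcription. Exon lengths that are multiples of 3 keep the reading frame if an exon is skipped, and they made up 41.9% of the 6210 exons beside named coding candidates. The share among other annotated exons is not given here, so this value is not shown to be particular to candidates.

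The 2 gaps of a candidate did not stand to their exons in the same way. In 2765 named candidates exactly 1 of the gaps was 1 nt longer than its exon. In 2764 of these (99.96%) it was the gap on the downstream side: where the gap after the candidate was the longer one, 1329 of 1330 introns lay on the plus strand, and where the gap before it was, 1435 of 1435 lay on the minus strand. In 614 named candidates both gaps equalled their exons, and in those the downstream neighbour was rarely a full-width interval (0.977%, against 78.5% and 82.9% in the candidates with a longer gap). Candidates were matched at a width equal to the intron, and 1.32% matched when set 1 nt longer. Longer intervals were matched at a width 1 nt below the intron (5993 of 7128, 84.1%), and 130 (1.82%) matched at an equal width. The list itself prints a plus sign for every interval. Divided by 3, the gaps left these remainders: 3494 of the candidates' 9554 gaps (36.6%) were multiples of 3 and 3248 left 1, whereas beside full-width intervals 31.8% were multiples and 36.9% left 1, and beside longer intervals 28.8% were multiples and 41.8% left 1. These gaps include the 1 nt offset, so the remainders do not compare exon lengths between the kinds of interval.

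**Figure D2:**
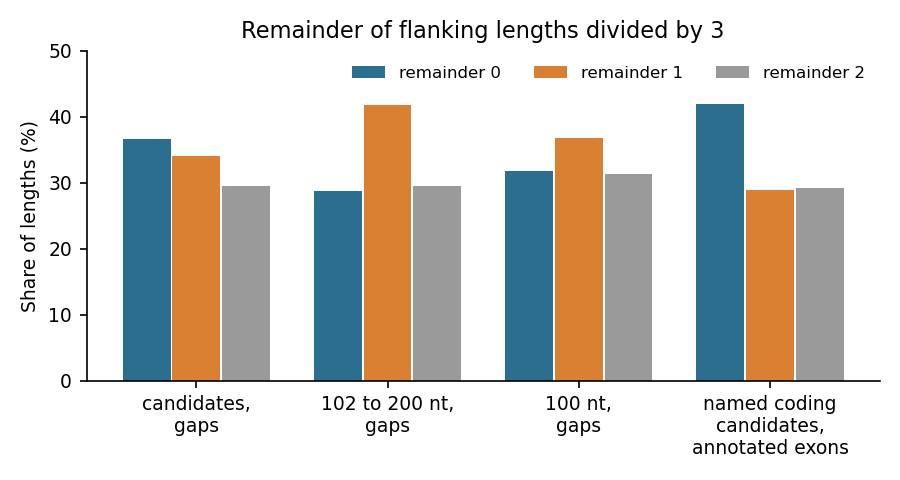
Share in % of flanking lengths that leave 0, 1 or 2 when divided by 3, for gaps beside candidates, beside longer intervals and beside 100 nt intervals, and for annotated exons beside named coding candidates. Multiples of 3 lead beside candidates (36.6%) and among exons (41.9%), and a remainder of 1 leads beside the other intervals. A gap can be 1 nt longer than its exon, so remainders of gaps are not those of exons. Exon lengths beside the other intervals are not drawn.

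The reading frame position of the introns was uneven. Of 3105 named coding candidates, 48.5% lay between codons (phase 0), 30.9% after the first base of a codon (phase 1) and 20.6% after the second (phase 2). The 5129 coding introns behind longer intervals had shares of 48.7%, 30.0% and 21.3%, each within 1 percentage point.

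Chromosomes differed in their share of candidates. Candidates were 3.72% of the intervals on chromosome 19 (687 of 18478), 2.14% on chromosome 17 (422) and 2.07% on chromosome 16 (305). The lowest shares were 0.411% on chromosome 21 (18 of 4381), 0.595% on chromosome 4 (99) and 0.638% on chromosome 5 (113). The mean over the 22 chromosomes was 1.25% ± 0.71 (SD). A candidate was often close to another. The nearest other candidate lay a median of 6645 nt away, and 29.7% had one within 1000 nt. The interval after a candidate was itself a candidate in 10.5% of cases, against 2.73% after a full-width interval between short gaps. Of 2675 windows of 1 Mb that hold an interval, 1139 held a candidate, and 124 windows held 50% of them.

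The 3 windows with the most candidates differed in score. Each interval carries a deposited score, a whole number from 0 to 125 which no label or header explains. The window of chromosome 8 from 145000001 to 146000000 held 64 candidates with a mean score of 41.3, in genes such as PLEC (13 named candidates), which encodes a cytoskeletal linker, and OPLAH (7), an enzyme of the glutathione cycle. That of chromosome 11 from 64000001 to 65000000 held 59 with a mean of 19.3, among them PLCB3 (11), MAP4K2 (10), ATG2A (8) and CDC42BPG (8). That of chromosome 17 from 10000001 to 11000000 held 54 with a mean of 0.241. Its named candidates lie in the skeletal muscle myosin heavy chain genes MYH3 (9), MYH8 (9), MYH2 (8), MYH1 (6), MYH13 (5) and MYH4 (5).

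Consecutive candidates formed runs. Most candidates stood alone (3868), while 909 (19.0%) stood in runs of 2 or more: 336 runs of 2, 56 of 3, 12 of 4, 3 of 5 and 1 of 6. The run of 6 lies in MAP4K2, a kinase upstream of the JNK pathway, on chromosome 11 from 64564026 to 64565097. Of its 6 candidates 5 matched an annotated intron, and the one that scored 7 did not. The scores were 12, 8, 7, 4, 5 and 4, and the intervals at its ends scored 43 and 9. The runs of 5 lie in TNXB, TBL3 and PAF1. The TNXB run, in the gene of the matrix protein tenascin X, spans 32009712 to 32010951 on chromosome 6, and its scores fell along the chromosome: 50, 34, 24, 21 and 18. The match of 2 of its 5 candidates was at several introns, and part of this gene has a near-identical copy nearby, so values there are uncertain. TBL3, a factor of ribosomal subunit assembly, has its run on chromosome 16 from 2024681 to 2025529 with scores of 27, 54, 37, 16 and 16. PAF1, a subunit of an elongation complex of RNA polymerase II, has its run on chromosome 19 from 39879108 to 39879921 with scores of 45, 54, 30, 12 and 14. Scores differed within each of these runs.

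**Figure D3:**
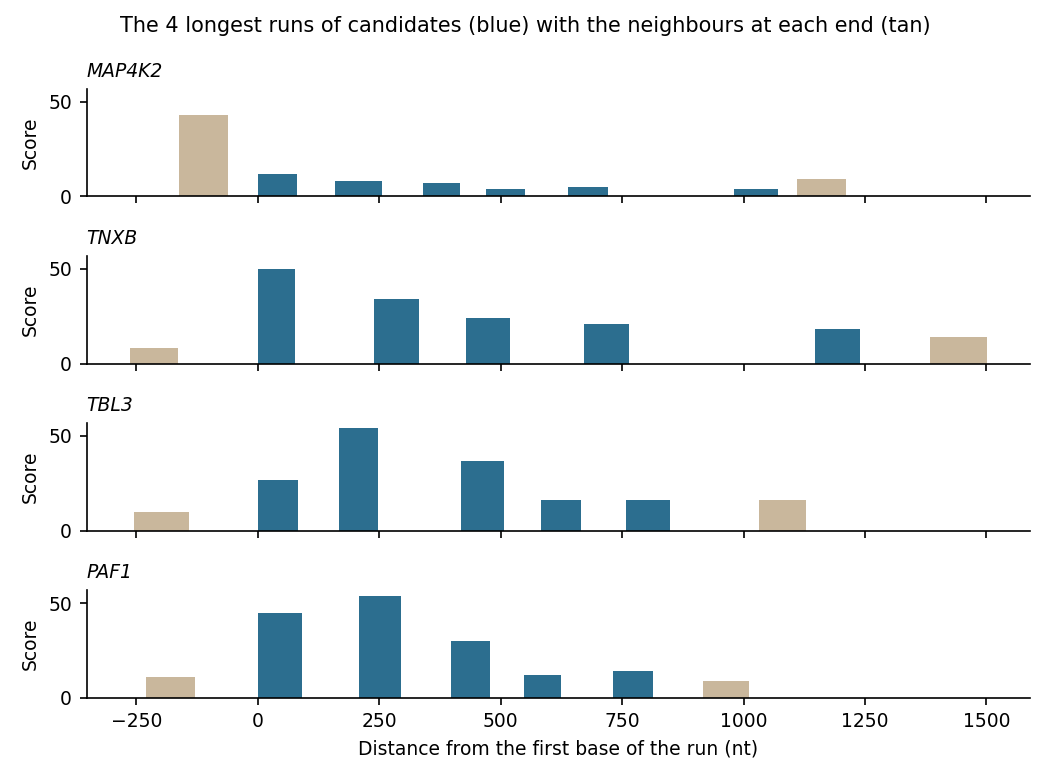
Score (height) and position in nt from the first base of the run for the candidates (blue) of the 4 longest runs and the interval at each end (tan). The MAP4K2 run stays at 12 or below beside an end interval of 43, and the other 3 runs reach 50 or more.

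Candidates scored higher than full-width targets. The mean score of the 4777 candidates was 14.8 and the median 5, against 7.55 and 1 in 35227 full-width intervals between gaps of 30 to 400 nt. A score above 0 was carried by 69.2% of candidates, 56.5% of those full-width intervals and 59.8% of all 50728 intervals between such gaps. Averaged over chromosomes the difference in mean score was 6.87 ± 3.77 (SD between chromosomes, n = 22), positive on 22 of 22, from 1.41 on chromosome 21 to 16.7 on chromosome 8. Longer intervals had a mean of 13.1 and a median of 4, and the remaining intervals of 70 to 95 nt a mean of 11.2 and a median of 2. Among matched candidates the mean was 19.1 at 70 to 74 nt, 15.9 at 75 to 79 nt, 15.6 at 80 to 84 nt, 14.6 at 85 to 89 nt and 14.5 at 90 to 95 nt.

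Against its own 2 neighbours a candidate was only somewhat higher on average. The mean score was 14.8 for candidates and 12.3 for the mean of the 2 neighbours, a difference of 2.55, while the median difference was 0. In full-width intervals the mean difference was -0.31, and in longer intervals it was 2.76. By chromosome the candidates' difference was 2.85 ± 2.31 (SD between chromosomes, n = 22). It was positive on 20 of 22 chromosomes and negative on chromosomes 8 (-1.92, with means of 23.8 for candidates and 25.7 for neighbours) and 13 (-0.23). The highest value was 10.3 on chromosome 18, which rests on 40 candidates. For longer intervals the difference by chromosome was 2.77 ± 0.92 (SD between chromosomes, n = 22), positive on 22 of 22, so it is not particular to candidates.

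**Figure D4:**
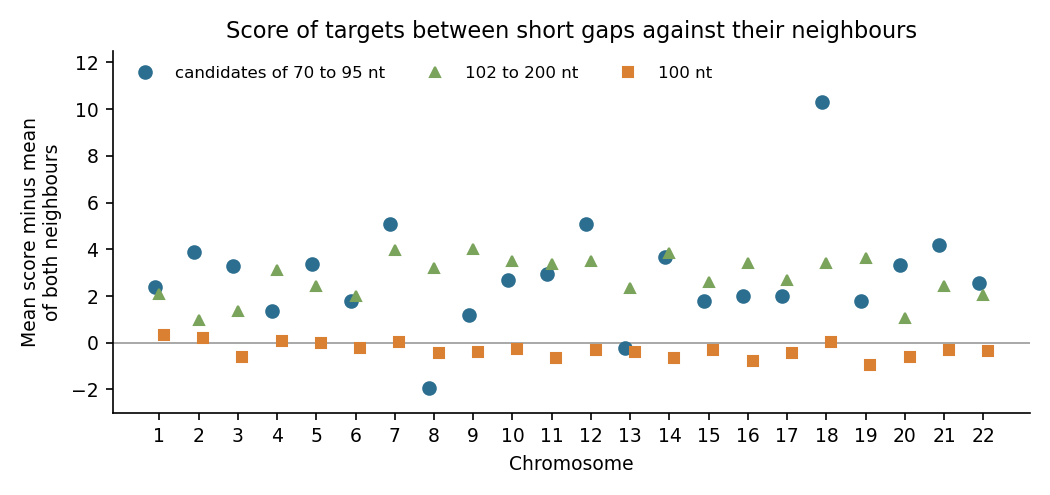
Mean score minus the mean of both neighbours on each of the 22 chromosomes for candidates (circles), longer intervals (triangles) and 100 nt intervals (squares), all between gaps of 30 to 400 nt. Candidates lie above 0 on 20 of 22 chromosomes and longer intervals on 22 of 22, and 100 nt intervals stay near 0.

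Counted one by one, 1922 candidates (40.2%) scored above the mean of their neighbours, against a background of 31.1% of all 50728 intervals between gaps of 30 to 400 nt. Below it lay 1695 (35.5%; background 37.3%), and 1160 (24.3%) were equal, of which 1042 had 3 scores of 0. Matched candidates lay above in 41.3% and below in 32.8%, whereas unmatched ones lay above in 37.3% and below in 43.3%. Above both neighbours stood 1379 (28.9%; background 21.5%), and below both 737 (15.4%; background 16.5%). The candidates' share above the mean exceeded that of full-width intervals (27.9%) on 22 of 22 chromosomes. Longer intervals had 41.1%, near the share in candidates. Matched candidates differed from their neighbours by 3.06 on average and unmatched ones by 1.10. Where both neighbours had a width within 4 nt of 100 nt, which held for 2551 candidates, the mean difference was 3.40.

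The strand of the annotated intron separates the neighbours by position in the transcript. The upstream neighbour then holds the 3′ end of the preceding intron, and the downstream neighbour the 5′ end of the next one. In 1669 named candidates with full-width neighbours on both sides, the mean score was 13.4 for the candidate, 9.85 for the upstream neighbour and 7.38 for the downstream neighbour. The candidate exceeded the upstream neighbour in 41.9% and fell below it in 23.8%, and it exceeded the downstream neighbour in 47.0% and fell below it in 19.3%. The upstream neighbour exceeded the downstream one in 38.5% and fell below it in 26.6%. Over all 3389 named candidates, whatever the width of the neighbours, the means were 15.4, 12.8 and 11.9.

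CAPRIN1, an RNA-binding protein of stress granules, has a candidate on chromosome 11 from 34107767 to 34107851 with the list's highest score, 125, between neighbours of 90 and 26. That score was shared by 54 intervals, of which 2 are candidates. PKMYT1, an inhibitory kinase of the cell cycle, has one on chromosome 16 from 3024159 to 3024245, also with 125, between 77 and 124. An unmatched candidate on chromosome 7 from 73098004 to 73098096 scored 123, but its neighbours are only 31 and 2 nt wide and scored 1 and 22. RBBP4, a histone chaperone, scored 122 on chromosome 1 from 33138301 to 33138391 beside 33 and 28. SMARCA5, a chromatin remodelling ATPase, scored 122 on chromosome 4 from 144459865 to 144459938 beside 24 and 20.

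The difference to the neighbours was largest for IPO7, a nuclear import receptor. Its candidate on chromosome 11 from 9455184 to 9455267 scored 121 between neighbours of 6 and 2. PRKDC, the catalytic subunit of DNA-dependent protein kinase, followed on chromosome 8 from 48761865 to 48761939 with 121 between 9 and 8, ahead of the unmatched candidate on chromosome 7. In the other direction, IPO5, a second import receptor, had 15 on chromosome 13 from 98662268 to 98662356 between neighbours of 107 and 110. An unmatched candidate on chromosome 3 from 52562782 to 52562875 had 15 between 114 and 85. NOL6, a nucleolar protein, had 3 on chromosome 9 from 33466224 to 33466305 between 44 and 117. In IPO7 and IPO5, both import receptors, single introns thus stood far above and far below the targets next to them.

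COL7A1 and TTN stood apart in their number of named candidates. COL7A1, type VII collagen of the skin's anchoring fibrils, had 32, TTN, the giant sarcomere protein titin, 31, and LAMA5, a basement membrane laminin chain, 14. SBF1, a myotubularin family protein, also had 14. PLEC had 13, RYR1, the calcium release channel of skeletal muscle, 12, and PLCB3, a phospholipase C, 11. CARMIL2, an actin regulator, and CC2D1A had 11 each, and SSPO, a secreted brain protein, had 10, as did SCRIB, MAP4K2, MYO15B and MYH7B. Ties were broken by chromosome, which alone put SSPO ahead of the other 4. The 10 genes with SSPO held 159 of the named candidates (4.69%). These genes differ in intron number, for which the counts were not adjusted. The annotation holds 390 introns of TTN, 120 of COL7A1, 88 of LAMA5 and 43 of SBF1. Of 70 to 95 nt it holds 47, 38, 18 and 19 in these genes. Of the 2013 genes, 1404 (69.7%) held a single one and 98 held 5 or more.

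The 10 genes differed in score. In COL7A1, 27 candidates scored 0 and 5 scored 1, and the neighbours averaged 0.109. Of its 32 upstream exons 28 were multiples of 3, with a median of 66 nt, and 21 of its introns were of phase 0 and 10 of phase 1. In TTN scores ran from 0 to 82 with a median of 7, and the neighbours averaged 13.4. Its upstream exons ran from 33 to 306 nt with a median of 279 nt, and 27 of the introns were of phase 1. The 9 TTN candidates nearest the 5′ end all scored 0, while 19 of the other 22 scored above 0, with a mean of 18.8 over the 22, a split noticed after the values were seen.

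In LAMA5 the lowest score was 1, the median 15 and the highest 68, with a mean of 19.4 against 13.9 in the neighbours. SBF1 ran from 7 to 36 with a median of 16, and its mean of 18.4 stood against 15.8. PLEC ran from 1 to 61 with a median of 26, and its mean of 25.9 stood against 27.2. PLCB3 ran from 1 to 77 with a median of 36, and its mean of 33.1 stood against 27.9. CC2D1A ran from 1 to 28 with a mean of 12.8 against 15.5. The scores of candidates and neighbours overlapped in each of these genes. RYR1 stayed between 1 and 8, CARMIL2 between 0 and 2, and SSPO between 0 and 1. Of the genes tied with SSPO, SCRIB had a mean of 23.9, MAP4K2 8.3, MYH7B 2.5 and MYO15B 1.7.

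**Figure D5:**
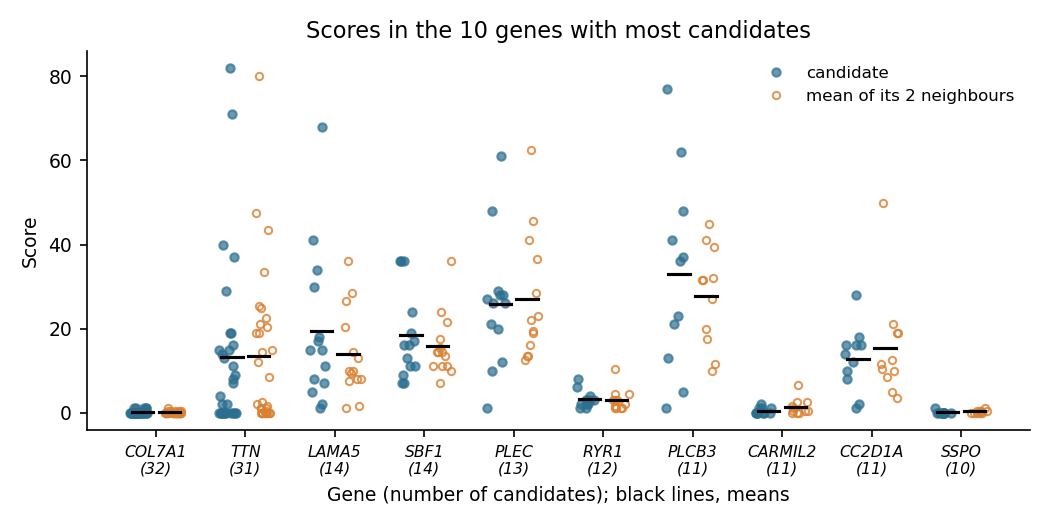
Score of each candidate (filled) and the mean score of its 2 neighbours (open) in the 9 genes with most named candidates and SSPO, 1 of 5 genes tied at 10, with black lines at the means and the number of candidates in brackets. Candidates and neighbours overlap in each gene drawn, and the candidates' means run from 0.156 in COL7A1 and 0.1 in SSPO to 33.1 in PLCB3.

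Gene lists differed in how often they held a candidate. Of 18119 spliced protein-coding genes on these chromosomes, 11.0% (1994) held at least 1 named candidate. The shares in this paragraph were not adjusted for the number of introns in a gene. The design left out highly transcribed parts and repeats, per the labels' protocols, and the candidate rule left out intervals beside longer gaps. A gene without a named candidate can therefore still hold short introns. The part of these exclusions in the shares was not tested. Among collagens, the triple-helical matrix proteins, 32 of 42 genes did (76.2%), with 92 candidates. Among kinesins, the motors that move along microtubules, 15 of 41 did, and among aminoacyl-tRNA synthetases, which charge transfer RNAs, 7 of 37. Proteasome subunits had 3 of 47 genes, zinc-finger (ZNF) genes 8 of 498, and ribosomal proteins 1 of 79, RPL3L. Of 12 spliced genes whose products act in recognition of the branchpoint or the 3′ splice site region, such as SF1, SF3B1 and U2AF2, none held a named candidate.

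The lists also differed in score. Over all protein-coding genes the named candidates scored 6 at the median, with a mean difference to their neighbours of 3.17. The 92 collagen candidates had a median of 0 and a mean difference of 0.098, with 13 above, 13 below and 66 equal to the mean of their neighbours. The 14 candidates in aminoacyl-tRNA synthetase genes had a median of 38.5, with 7 above and 7 below. The 4 in proteasome genes had a median of 38, with 3 above and 1 below. The 22 in kinesin genes had a median of 13 and a mean difference of 7.48, with 14 above, 2 below and 6 equal. The 15 in ZNF genes, 7 of them in ZNF335, had a median of 12, with 7 above, 6 below and 2 equal.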

How the data were processed

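The authors' deposited list gives each interval's chromosome, start, end, running number and score, in hg19 per the submitters' processing notes, which also name Bowtie2, TopHat2 and bedtools. Per the labels' protocols, the 100 nt at each intron end of GENCODE release 12 were targeted, and exons, highly transcribed parts and repeats were left out. No label or header explains the deposited score, so it was not treated as a read count, and no sequencing depth is known. Intervals were sorted, and width and gaps to both neighbours were computed. Gene names came from GENCODE release 29 (GRCh38) by length: the width had to equal an intron, and each gap its exon or, on 1 side, the exon plus 1 nt. Above 100 nt the interval was set 1 nt longer and at least 1 gap 1 nt longer. Matches to 1 intron were kept only where their order along the chromosome fitted that of the others, by rank. On lists simulated from the annotation of chromosomes 21 and 22, the matching found 23 of 23 and 111 of 117 true introns, and 0 and 1 candidates matched elsewhere only. Those lists were built from the same annotation that was searched, so they check the matching steps alone. They do not measure how well the names fit the real list, which was designed on release 12. Named were the 5 highest scores, the 3 largest differences each way, the longest runs, the 3 chromosomes at each end, the 3 richest windows, the 10 genes with most candidates (the last, SSPO, tied with 4 others, ties broken by chromosome) and 7 gene lists. The members and lists were chosen with earlier results of these data known. The offset rule, the order rule, PAF1 (tied with 2 other runs of 5) and all work on sequence were chosen after the values were seen. Python 3.11.15, numpy 2.4.6, pandas 2.3.3, scipy 1.17.1 and matplotlib 3.10.9 were used.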

Additional observations from a re-analysis of the deposited data

Results flagged for a closer look

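The running numbers of the list are a field that no comparison above uses. A number was missing directly before or after 49 candidates (1.03%), against 152 full-width intervals between short gaps (0.431%). The mean score was 56.5 in those 49 and 14.4 in the other 4728 candidates. Their neighbours were high too, with means of 53.7 beside the 49 and 11.9 beside the others. The mean difference to the neighbours was 2.85 in the 49 (median -5.5) and 2.55 in the others. The part of removed intervals in the score was not tested.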

How the results depend on the processing

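No paired analysis was possible because all 3 libraries belong to 1 group and share a list without values of their own, and leaving out a replicate was not possible for the same reason. The number of candidates was 2551 with both neighbours within 4 nt of 100 nt and 2183 with both of exactly 100 nt, since these limits remove candidates. The share in runs was 17.8% with gaps of 30 to 300 nt and 15.0% with widths of 70 to 90 nt, and 0% under both limits on neighbour width, which exclude runs by construction. The share matched to an annotated intron was 14.2% without the 1 nt offset and 87.2% with 1 flanking exon, where an interval set 1 nt longer still matched 47.7%. All other values stayed within the spread between chromosomes (means and medians), the 95% Wilson interval (shares, counting error only) or 1.5 times (counts): the mean difference to the neighbours ran from 2.45 without chromosomes 1 and 2 to 3.53, and that to full-width intervals from 5.74 to 7.94. The limits on exact 100 nt neighbours and on chromosome 19 were added after the data were seen. No reads were counted, so depth sets no limit that can be stated.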
